A study of Mus musculus with 4 samples.

Results

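Transcripts of 10 lysosomal protease and protease inhibitor genes were read across the cell classes of the mouse thymus. Ctsb, Ctsf, Ctsh, Ctsl, Ctss and Ctsz code for cysteine cathepsins, Ctsd and Ctse code for aspartic cathepsins, and Cst3 and Cst7 code for the inhibitors cystatin C and cystatin F. The genes were chosen by symbol, and 10 of the 10 symbols were found among the 55418 gene entries of the files. The cells came from C57BL/6 mice with no treatment listed before they were killed, and were sorted from digested thymus for a fluorescent reporter before single-cell RNA sequencing. The MAFIA mice (genotype Csf1r-EGFP-NGFR/FKBP1A/TNFRSF6, 5 weeks old) carried EGFP and an inducible death receptor under the Csf1r promoter, which is active in macrophages and monocytes and in part of the dendritic cells (DCs). The Cd11cYFP mice (genotype Itgax-Venus, 9 weeks old, male by the methods of the study) carried a yellow fluorescent protein under the Itgax promoter, which is active in DCs and in some macrophages. The methods of the study describe 1 female MAFIA mouse, whereas the series holds 2 MAFIA libraries, so the sex of a given MAFIA library is not known here. Any class was seen only through cells that passed the reporter sort, among which the study lists contaminating thymocytes. The reporter, the age, the sex and the library could not be told apart. The libraries that were divided into cell classes were MAFIA replicate 2, Cd11cYFP replicate 1 and Cd11cYFP replicate 2, and 3 values in a row are always given in that order.

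Cathepsins are made as inactive proenzymes, sorted to endosomes and lysosomes, and activated there by low pH and by other proteases. They degrade engulfed material, and in antigen-presenting cells they also cut antigens and the invariant chain (Cd74), which blocks the peptide groove of MHC class II until it is removed. Cystatins bind the active site of cysteine cathepsins and leave aspartic cathepsins untouched. In the thymus, macrophages clear thymocytes that die during selection, and DCs and epithelial cells show peptides to the developing T cells. In culture, the study found that thymic macrophages could also present an antigen to T cells, less well than DCs.

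After filtering, 23549 cells of the 3 libraries formed 27 clusters, of which 21 were named from marker genes and merged into 11 classes with 22991 cells, and 6 clusters with mixed markers (558 cells) were set aside. Median depth was 15759 to 17493 UMIs (unique molecular identifiers, each standing for 1 captured transcript) per barcode, and pairs of libraries shared 10 to 25 cell barcodes. The classes were Timd4+ macrophages (994 cells), Cx3cr1+ macrophages (1964), monocytes (1062), Xcr1+ conventional DCs (5079), Cd209a+ conventional DCs (3418), Ccr7+ mature DCs (4666), plasmacytoid DCs (pDCs, 1237), B cells (3180), thymocytes (1194), fibroblasts (117) and thymic epithelial cells (80). Each name stands for cells that are like the type in their markers, and fibroblasts were held by 2 libraries since MAFIA replicate 2 had 1 such cell. The 6 Timd4+ macrophage markers summed to 6244 to 7987 CPM (UMIs per 1000000 UMIs of a class in a library) in that class against 1551 to 1739 in Cx3cr1+ macrophages, and the 6 Cx3cr1+ macrophage markers to 1991 to 2384 CPM against 878.3 to 1169. Markers of Xcr1+ DCs, Ccr7+ DCs and pDCs summed to at least 3246, 7696 and 13400 CPM in their own class, while those of Cd209a+ DCs summed to 997.3 to 2099 CPM there and to 1292 to 1382 CPM in Timd4+ macrophages, so that list did not separate these 2 classes. The monocyte list summed to 9096, 4489 and 3155 CPM in monocytes and to 7773, 7528 and 6032 CPM in pDCs, and did not separate those either. B cell markers summed to at most 98.46 CPM in each of the 7 macrophage, monocyte and DC classes, and thymocyte markers to at most 160.6 CPM except in pDCs (704.8 to 925.3). Neutrophil markers summed to 2373 CPM in the monocytes of MAFIA replicate 2 and to 56.0 and 48.24 CPM in those of the Cd11cYFP replicates, and monocyte comparisons were therefore also read without that library.

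Stretches of 30 bases are shown from the RefSeq promoter windows of 4 genes, Ctsd, Ctsf, Ctsl and Ctss, because these windows held either motif described next. The windows of Ctsz, Cst3 and Cst7 held neither motif. Ctsb, whose excess in macrophages over conventional DCs was larger than that of Ctsl, had no listed window, nor had Ctse and Ctsh. Capitals mark an E-box, CACGTG, the core of the site bound by MITF, TFEB, TFE3 and TFEC, which drive lysosomal genes, or in Ctss an interferon response element, GAAA and GAAA with 2 bases between them, of the kind that IRF factors bind. All are GRCm39, written 5′ to 3′ on the strand of the gene.
Ctsd, chr7:141941645-141941674 (minus strand): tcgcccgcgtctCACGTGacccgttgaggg
Ctsf, chr19:4905102-4905131 (plus strand): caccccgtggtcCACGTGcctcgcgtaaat
Ctsl, chr13:64518553-64518582 (minus strand): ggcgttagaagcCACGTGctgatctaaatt
Ctss, chr3:95434066-95434095 (plus strand): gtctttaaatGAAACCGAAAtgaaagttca
Promoters of 7 of the 10 genes were listed by RefSeq (table of build GRCm38.p6, each found once on its GRCm39 chromosome). Read on both strands over the 250 bases before the RefSeq start, the E-box stood in 3 of these 7 (Ctsd at 245 and at 98 bases before the start, Ctsf at 79, Ctsl at 236) and in 6.02% of 32851 promoters in the table. The interferon response element stood in 1 of the 7 (Ctss, 21 bases before the start) and in 2.98% of promoters. The motifs were picked after the sequences had been read, so these counts describe letters and carry no test. By the GENCODE annotation 211 bases of the Ctsd window and 75 of the Ctsf window lie in untranslated exon. The printed Ctsd stretch lies wholly in that exon, and the Ctsf E-box spans the canonical start. The Ctsl window lies upstream of its canonical start but inside the annotated gene (chr13:64507151-64518704). The printed Ctss stretch also lies inside its annotated gene (chr3:95433963-95463717). Whether these sites act in a promoter was not tested.

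As a group the 10 genes made up 2.72% ± 0.38 (SD, n = 3 libraries) of all UMIs in Xcr1+ DCs, 2.38% ± 0.64 in Ccr7+ DCs, 2.11% ± 0.073 in Cx3cr1+ macrophages and 1.94% ± 0.20 in Timd4+ macrophages, against 0.107% ± 0.017 in thymocytes. The makeup of these sums differed between the classes. The 6 cysteine cathepsins gave 1.34% ± 0.14 of UMIs in Cx3cr1+ macrophages and 1.31% ± 0.19 in Timd4+ macrophages, but 0.124% ± 0.013 in Xcr1+ DCs, where nearly all the sum was Cst3. UMIs were counted at the transcript 3′ end and carry no length scaling, so the sums are shares of captured transcripts. Each gene's highest class stood 34.8-fold (Ctsz) to 226-fold (Ctsf) above its lowest among the 10 classes held by 3 libraries. In the orders of these classes by level, 36 of 90 neighbours had ranges that did not overlap. Among the cysteine cathepsins, Ctsb and Ctsf were led by Timd4+ macrophages, Ctss and Ctsz by Cx3cr1+ macrophages, and Ctsh and Ctsl by pDCs.

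**Figure D1:**
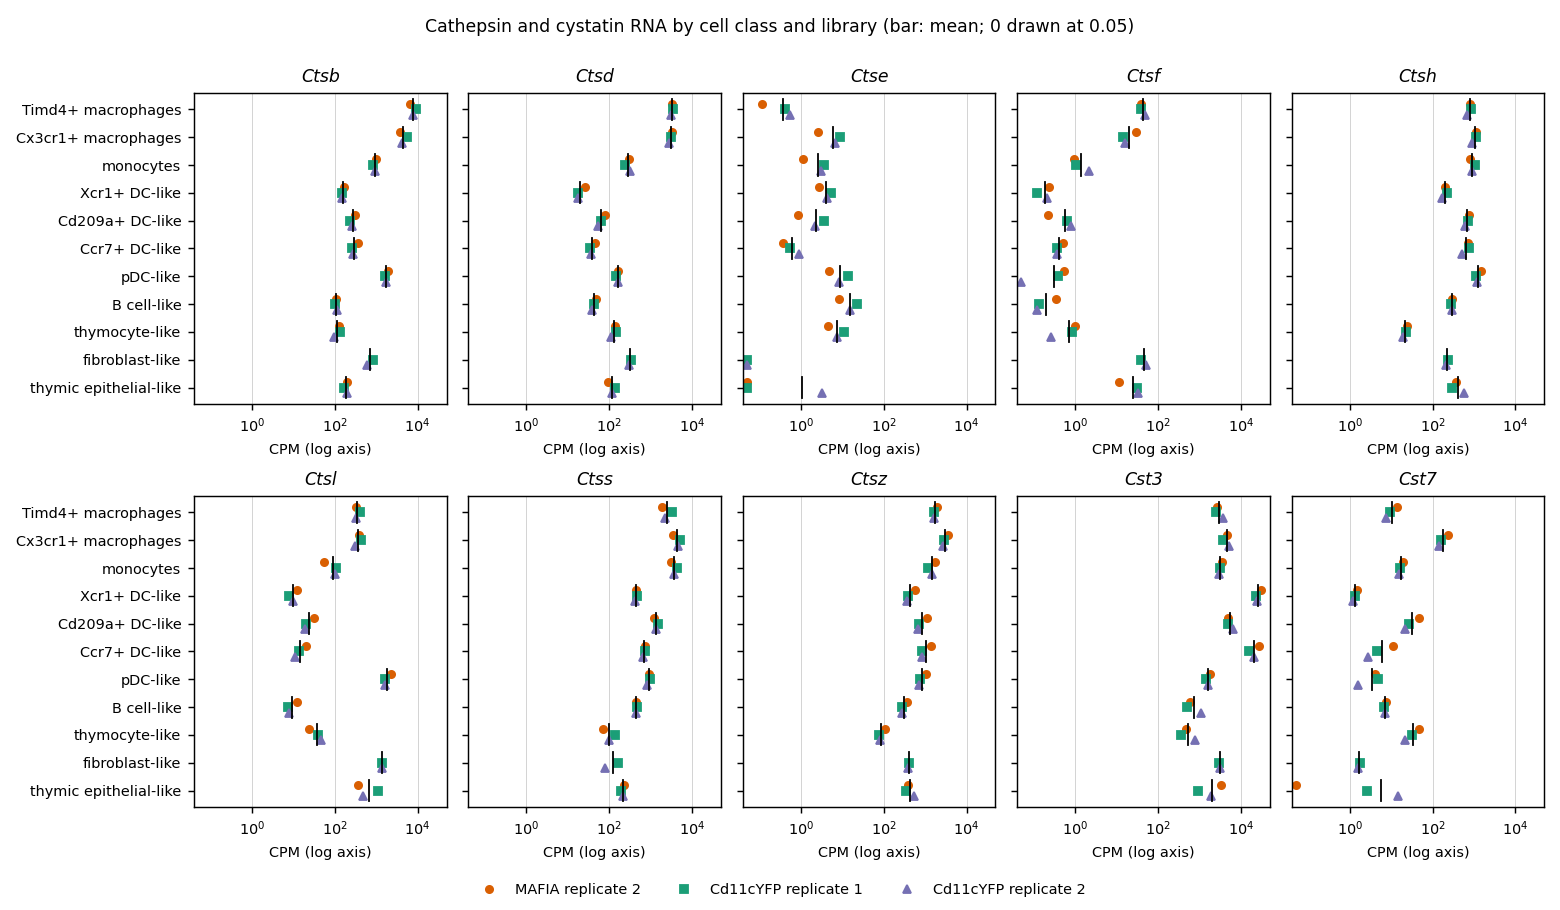
Level of each gene, in CPM on a log axis, in 11 cell classes. Each point is 1 library (circle MAFIA replicate 2, square Cd11cYFP replicate 1, triangle Cd11cYFP replicate 2), the bar is their mean, and a level of 0 is drawn at 0.05. Ctsb runs from 7731 CPM in Timd4+ macrophages down to 107.6 in B cells, and Cst3 from 25950 CPM in Xcr1+ DCs down to 527.3 in thymocytes.

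Ctsb codes for cathepsin B, an abundant lysosomal protease that can act as an endopeptidase and as a carboxydipeptidase. It stood at 6385, 9069 and 7740 CPM in Timd4+ macrophages. In Cx3cr1+ macrophages it stood at 3811, 5457 and 4146 CPM, with no overlap between the 2 classes. In pDCs it stood at 1880, 1612 and 1738 CPM. In monocytes it stood at 976.7, 841.5 and 952.1 CPM, so pDCs were above monocytes in 3 of 3 libraries, and both were well above the conventional DCs. Cd209a+ DCs (237.3 to 312.1 CPM) and Xcr1+ DCs (146.3 to 169.9 CPM) were lower still, and B cells (104.3 to 113.3 CPM) had the lowest mean, with a range that overlapped that of thymocytes. With each cell reduced at random to 3000 UMIs, 99.9% of Timd4+ macrophages and 99.4% of Cx3cr1+ macrophages held a Ctsb UMI, against 25.6% of B cells, a class of lower depth (median 10557 to 12766 UMIs per library, against 12006 to 25309 in the macrophages).

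Ctsl codes for cathepsin L, an endopeptidase that in the thymic cortex is known for cutting the invariant chain and self-antigens in epithelial cells. It was highest in pDCs, at 2248, 1647 and 1629 CPM. Fibroblasts followed with 1409 and 1356 CPM in the Cd11cYFP replicates. Thymic epithelial cells, the class with the widest spread, had 371.3, 1137 and 488.8 CPM from 21 to 32 cells a library. Pth, Ubd, Chga and Fcgbp led this class, and its endothelial marker score was 2.53 beside an epithelial score of 4.66. Only 43.5% of its cells held a Ctsl UMI after reduction to 3000 UMIs, so the level was not even within it. Macrophages of both classes lay between 305.7 and 430.0 CPM, and the classes did not differ beyond their spread. Monocytes had 54.17, 108.3 and 103.9 CPM, and Xcr1+ DCs, Cd209a+ DCs and B cells lay between 7.54 and 32.02 CPM. Every pDC value was far above any value of a conventional DC class. After reduction to 3000 UMIs, 97.5% of pDCs held a Ctsl UMI, against 60.9% of Timd4+ macrophages, 63.2% of Cx3cr1+ macrophages, 2.64% of Xcr1+ DCs and 2.58% of B cells.

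Ctss codes for cathepsin S, which stays active at neutral pH and removes the invariant chain in DCs, B cells and macrophages. It stood at 3565, 5088 and 4510 CPM in Cx3cr1+ macrophages. Monocytes had 3052, 4289 and 3734 CPM. In each library the macrophages were above the monocytes, but the ranges overlapped. Timd4+ macrophages had 1919, 3226 and 2235 CPM, and Cd209a+ DCs had 1223, 1545 and 1324 CPM. Xcr1+ DCs held 430.5 to 458.2 CPM, next to B cells at 451.3 to 459.9 CPM, and the lowest class was thymocytes at 72.75 to 134.6 CPM. Of the 3 libraries, Cd11cYFP replicate 1 was the highest for Ctss in all 7 macrophage, monocyte and DC classes.

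Ctsz codes for cathepsin Z, also called cathepsin X, a carboxypeptidase. It followed a similar order to Ctss, with 3663, 2912 and 2651 CPM in Cx3cr1+ macrophages. Timd4+ macrophages had 1941, 1638 and 1596 CPM, and the 2 classes did not overlap. Ccr7+ DCs had 1415, 822.4 and 835.2 CPM, where MAFIA replicate 2 stood apart from the Cd11cYFP replicates. Ctsh codes for cathepsin H, which trims proteins mainly from the N-terminal end. It was the most even of the genes across phagocytes and DCs, Xcr1+ DCs aside, from 1471, 1090 and 1148 CPM in pDCs to 762.1, 718.4 and 602.7 CPM in Cd209a+ DCs and 517.0 to 736.5 CPM in Ccr7+ DCs, with overlapping ranges for pDCs, Cx3cr1+ macrophages, monocytes and Timd4+ macrophages taken as neighbours. Xcr1+ DCs were outside this band, at 203.5, 216.9 and 171.8 CPM, below B cells in 3 of 3 libraries.

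Ctsf codes for cathepsin F, a protease able to cut the invariant chain in macrophages. It was a low gene found in macrophages and stroma, at 38.86, 38.70 and 49.34 CPM in Timd4+ macrophages. Fibroblasts had 38.15 and 51.36 CPM, and thymic epithelial cells 11.60, 30.45 and 32.48 CPM. Cx3cr1+ macrophages had 29.24, 14.43 and 16.18 CPM, below Timd4+ macrophages in 3 of 3 libraries and without overlap. Monocytes had 0.947, 1.03 and 2.19 CPM, and Xcr1+ DCs 0.121 to 0.235 CPM. Summed over libraries, Timd4+ macrophages held 692 Ctsf UMIs and monocytes 19, a ratio of 35.3 (22.4 to 59.0, 95% interval for counting error only). In pDCs of Cd11cYFP replicate 2, 0 Ctsf UMIs were counted, which allows up to 2.32 CPM.

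Ctsd codes for cathepsin D, the main aspartic protease of lysosomes. It stood at 3196, 3475 and 3171 CPM in Timd4+ macrophages. Cx3cr1+ macrophages had 3231, 3165 and 2814 CPM, and the 2 classes overlapped. Monocytes were a step below, at 304.2, 238.3 and 309.2 CPM. Xcr1+ DCs were the lowest of the 10 classes, at 25.46, 18.01 and 17.29 CPM, with Ccr7+ DCs just above at 45.37, 33.98 and 35.37 CPM, both under the level of B cells and of thymocytes in each library. With 3000 UMIs a cell, 99.6% of Timd4+ macrophages, 95.4% of Cx3cr1+ macrophages and 43.7% of monocytes held a Ctsd UMI, against 12.2% of B cells and 6.41% of Xcr1+ DCs.

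Ctse codes for cathepsin E, an aspartic protease of endosomes known from gastric and immune cells. Its order was led by B cells, at 8.27, 22.93 and 15.46 CPM. Then came pDCs at 4.80, 13.48 and 8.50 CPM and thymocytes at 4.49, 11.20 and 7.28 CPM. Cx3cr1+ macrophages had 2.57, 8.88 and 6.57 CPM. All neighbours in this order overlapped, and MAFIA replicate 2 was the lowest library in 9 of 10 classes. Timd4+ macrophages were at the bottom with 1, 2 and 2 UMIs, and 0 of 994 cells held a Ctse UMI after reduction to 3000, which allows a share of up to 0.302% with a UMI at that depth (0.4403% held one unreduced). Their ratio to Cx3cr1+ macrophages, 5 against 257 UMIs, gave a level 19.8 times higher in the latter (8.36 to 61.4, counting error only).

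Cst3 codes for cystatin C, a small secreted inhibitor of cysteine cathepsins and a known high transcript of DCs. It stood at 30208, 23412 and 24222 CPM in Xcr1+ DCs. Ccr7+ DCs had 27334, 15324 and 20414 CPM, lower than Xcr1+ DCs in 3 of 3 libraries with overlapping ranges. Cd209a+ DCs had 4845, 4755 and 6427 CPM, much closer to Cx3cr1+ macrophages at 4570, 3606 and 5263 CPM than to the other conventional DCs. Timd4+ macrophages had 2610, 2547 and 3752 CPM, and pDCs 1782, 1433 and 1606 CPM. B cells (508.9 to 1077 CPM) and thymocytes (350.9 to 772.0 CPM) also showed Cst3 in every library, and 77.7% and 66.7% of their cells held a Cst3 UMI after reduction, so shares near those values read as background.

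Counted against the cysteine cathepsins of the same cells, Cst3 gave 20.8 ± 1.37 (SD, n = 3) UMIs per cysteine cathepsin UMI in Xcr1+ DCs, 7.77 ± 1.58 in Ccr7+ DCs and 1.70 ± 0.45 in Cd209a+ DCs. The ratio was 0.231 ± 0.065 in Timd4+ macrophages, 0.246 ± 0.016 in pDCs, 0.341 ± 0.092 in Cx3cr1+ macrophages and 0.450 ± 0.061 in monocytes. The lowest Xcr1+ DC library (19.2) and the highest Timd4+ macrophage library (0.297) were far apart, and the 3 conventional and mature DC classes did not overlap with one another or with macrophages.

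**Figure D2:**
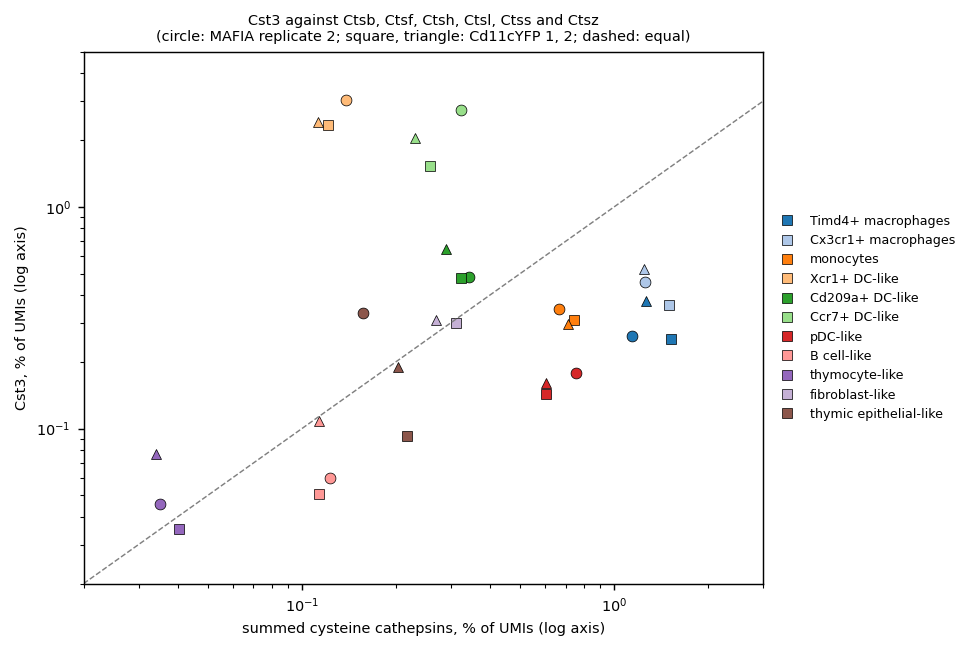
Share of UMIs from Cst3 (vertical, %, log axis) against the share from Ctsb, Ctsf, Ctsh, Ctsl, Ctss and Ctsz together (horizontal, %, log axis). Each point is a class (colour) in a library (shape), and the dashed line marks equal shares. Xcr1+ DCs lie far above the line at 20.8 Cst3 UMIs per cysteine cathepsin UMI, and Timd4+ macrophages below it at 0.231.

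Cst7 codes for cystatin F, which is kept inside the cell and carried to endosomes and lysosomes, and is known from cytotoxic lymphocytes and activated microglia. It stood at 239.1, 155.8 and 140.1 CPM in Cx3cr1+ macrophages, above each other class in each library. Thymocytes had 46.47, 32.43 and 21.58 CPM, in a class where cytotoxic lymphocyte markers summed to 486.3, 930.1 and 492.2 CPM, more than in any other class of the same library. Their part in the Cst7 level was not tested. Cd209a+ DCs had 45.71, 27.57 and 21.35 CPM, with a range that overlapped that of thymocytes. Timd4+ macrophages had 13.62, 9.30 and 7.63 CPM, and Xcr1+ DCs were lowest at 1.49, 1.30 and 1.17 CPM. After reduction to 3000 UMIs, 34.2% of Cx3cr1+ macrophages held a Cst7 UMI, against 2.54% of Timd4+ macrophages, 7.53% of Cd209a+ DCs and 1.81% of B cells. Among thymocytes, Cst7 was not even, since the cluster led by Cd3g and Cd3d, with Nkg7 among its leading genes, had 11.17, 41.77 and 33.05 CPM, and the cluster with Trbc2, Dntt and Gzma had 57.86, 13.61 and 7.96 CPM, opposite orders in the MAFIA and Cd11cYFP libraries.

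Differences between classes were tested with edgeR's quasi-likelihood test on UMIs summed per library and class, with the library as a block and Benjamini-Hochberg adjustment over all genes tested (threshold 0.05). All 10 genes passed the low-count filter of each fit, and each log2 fold change below stands with its standard error. The cells that formed the classes were also the cells compared, although the 10 genes and the lists below had been kept out of the clustering. Replicates are libraries of separate mice by the methods of the study.

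**Figure D3:**
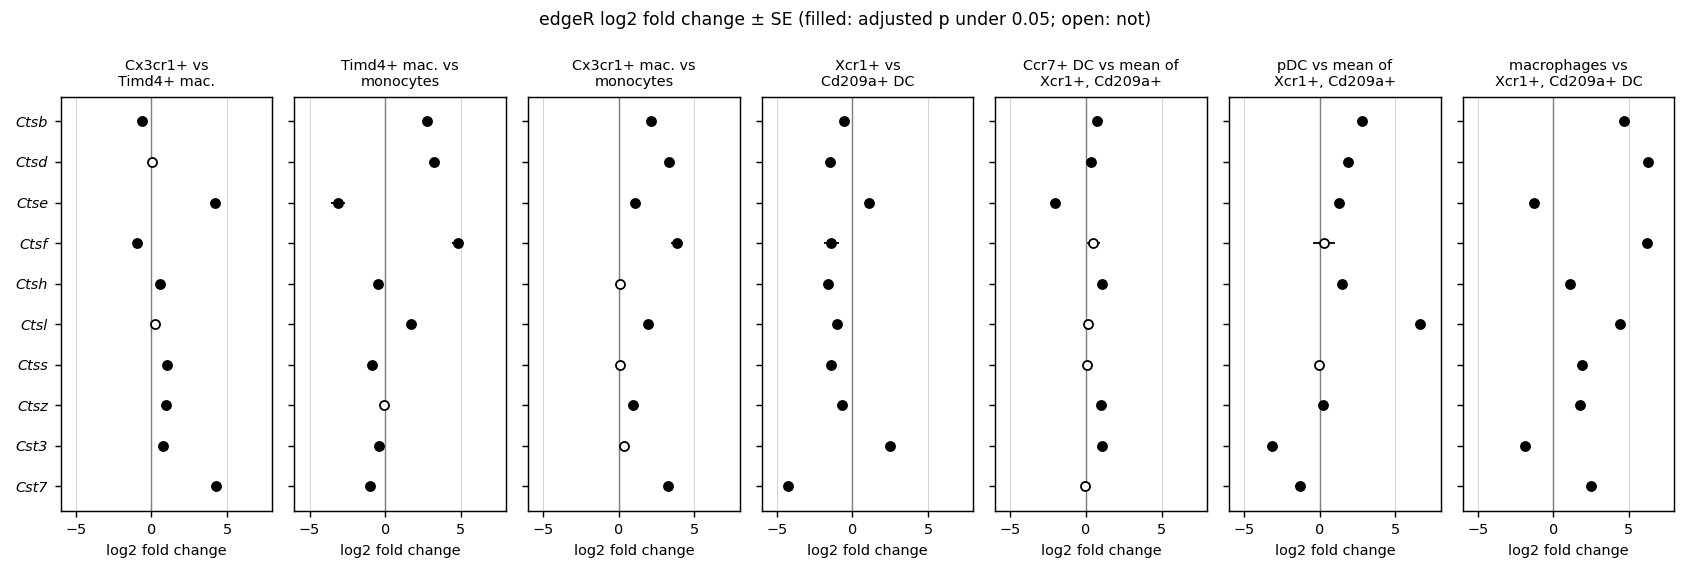
Log2 fold change of the 10 genes in the 7 comparisons (points, edgeR) with standard errors as bars. Filled points have an adjusted p under 0.05. Ctsd (6.29), Ctsf (6.22), Ctsb (4.66) and Ctsl (4.39) lie farthest to the right for macrophages against conventional DCs, and Cst3 (-1.89) lies on the left there.

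The broadest contrast set the mean of both macrophage classes against the mean of Xcr1+ and Cd209a+ DCs. Ctsd was higher in macrophages by 6.29 ± 0.11 on the log2 scale and Ctsf by 6.22 ± 0.23. Ctsb was higher by 4.66 ± 0.12, Ctsl by 4.39 ± 0.19 and Cst7 by 2.51 ± 0.16. Ctss (1.87 ± 0.093), Ctsz (1.78 ± 0.073) and Ctsh (1.10 ± 0.083) were also higher, whereas Cst3 fell by 1.89 ± 0.12. Ctse was lower at -1.29 ± 0.28. For Ctse and Cst7 the macrophage classes stood on different sides. By CPM, mean Ctse was 0.3622 in Timd4+ and 6.008 in Cx3cr1+ macrophages, against 4.054 in Xcr1+ and 2.268 in Cd209a+ DCs. Mean Cst7 was 10.19 CPM in Timd4+ macrophages, below Cd209a+ DCs at 31.54 CPM. In all, 8 of the 10 genes were higher and 2 lower at adjusted p of at most 4.17e-04, each with the same sign in 3 of 3 libraries. Over all 15421 genes tested, 35.2% were called higher and 34.0% lower, and the median log2 fold change was 2.19 for the 10 genes and -0.0027 for all genes. The Ctse call was lost at a finer clustering (-0.30, adjusted p = 0.293) and when all variable genes formed the clusters (-0.020, adjusted p = 0.937).

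Other genes of the pathway were read in the same contrast. Of 12 genes for lysosomal targeting and membrane, 12 were higher in macrophages, led by the tetraspanin Cd63 (5.19 ± 0.15), the membrane protein Lamp1 (3.76 ± 0.11) and progranulin, Grn (2.52 ± 0.099). This count was also 12 with no TMM scaling. Of 7 regulators of lysosomal genes, 5 were higher and 1 lower, and Tfec rose from 0.118 to 1.90 CPM over the conventional DC libraries to 47.06 to 60.07 CPM in macrophages (6.71 ± 0.20). Its relative Mitf was higher by 3.78 ± 0.12 and Tfe3 by 0.88 ± 0.073. Of 9 processing and partner proteases, 6 were higher and 2 lower, with legumain, Lgmn, which activates cathepsins by cutting their proenzymes, at 5.13 ± 0.18, the tripeptidyl peptidase Tpp1 at 4.78 ± 0.10 and the aspartic protease Napsa at -2.76 ± 0.14. Of 5 other cathepsins tested, 4 were higher and 1 lower, with Ctsa, a serine carboxypeptidase, at 3.93 ± 0.11 and Ctsc, an activator of granule serine proteases, at 3.05 ± 0.098. Of 9 other inhibitors tested, 2 were higher and 4 lower, with Serpinb6a at 4.51 ± 0.13. The shares over all genes in this contrast were 35.2% higher and 34.0% lower.

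Between the 2 macrophage classes, Cst7 and Ctse set Cx3cr1+ macrophages apart. Cst7 was higher there by 4.26 ± 0.12 (adjusted p = 2.23e-07 by edgeR) and Ctse by 4.20 ± 0.36. Ctss (1.0 ± 0.11), Ctsz (0.97 ± 0.11), Cst3 (0.74 ± 0.14) and Ctsh (0.56 ± 0.12) were also higher, while Ctsf (-0.96 ± 0.21) and Ctsb (-0.64 ± 0.15) were lower, each in 3 of 3 libraries. Ctsd (0.051 ± 0.12, adjusted p = 0.783) and Ctsl (0.22 ± 0.18, adjusted p = 0.377) did not pass. That makes 6 higher and 2 lower, where 19.1% of 12937 genes were called higher and 19.4% lower, with a median of 0.65 for the 10 genes and -0.0079 for all genes. Without Cd11cYFP replicate 2, Ctsb (-0.59, adjusted p = 0.11) and Ctsf (-0.74, adjusted p = 0.067) lost the call and 0 genes of the 10 were called lower, and Ctsf also lost it without Cd11cYFP replicate 1 (-0.83, adjusted p = 0.0634) and with all variable genes (-0.39, adjusted p = 0.122). At the finer clustering and with all variable genes, where the Timd4+ class took in 112 and 101 Cx3cr1+ cells and a cluster of 241 and 202 cells that also scored for Ccr7+ DC markers, Cst3 turned to -0.030 and -0.051, Ctsb fell to -0.31 and -0.15, and Ctse and Cst7 ranged over all settings from 1.57 to 7.45 and from 3.26 to 5.10.

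On the list of 9 processing and partner proteases, which also holds the invariant chain and a thiol reductase, 4 genes were higher and 3 lower in Cx3cr1+ than in Timd4+ macrophages, with a median of -0.15. Higher were Cd74 (2.22 ± 0.15), the thiol reductase Ifi30 (1.56 ± 0.11) and Napsa (1.74 ± 0.15), and Napsa lost its call with all variable genes (0.54, adjusted p = 0.119). Cd74 stood at 2944 to 4652 CPM in Timd4+ and 13060 to 19670 CPM in Cx3cr1+ macrophages, with no overlap. Of 12 targeting and membrane genes, 5 were higher and 4 lower (2 and 4 with no TMM scaling), with a median of 0.23. Lower were Igf2r, the cation-independent mannose 6-phosphate receptor (-2.41 ± 0.20), and sortilin, Sort1 (-2.31 ± 0.13), and Cd63 was higher by 1.30 ± 0.19. Inhibitors split as well, with Spint1 at 2.91 ± 0.12 and Serpinb6a at -2.38 ± 0.17, 1 higher and 1 lower of 5 tested. Of 3 other cathepsins 2 were lower, and both lost the call without Cd11cYFP replicate 1 (Ctso at -0.40, adjusted p = 0.143, and Ctsa at -0.28, adjusted p = 0.234). Of 7 regulators 1 was higher, Spi1 at 0.52 ± 0.10, a call lost without Cd11cYFP replicate 1 (0.49, adjusted p = 0.0548). The shares over all genes in this contrast were 19.1% higher and 19.4% lower.

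Set against monocytes, Timd4+ macrophages were higher for Ctsf (4.81 ± 0.36), Ctsd (3.24 ± 0.14), Ctsb (2.75 ± 0.16) and Ctsl (1.74 ± 0.19). They were lower for Ctse (-3.12 ± 0.44), Cst7 (-1.02 ± 0.14), Ctss (-0.90 ± 0.11), Ctsh (-0.50 ± 0.12) and Cst3 (-0.41 ± 0.14), and Ctsz did not pass (-0.053 ± 0.11). Thus 4 genes were higher and 5 lower, where 26.6% of genes were called higher and 25.6% lower, with medians of -0.23 for the 10 genes and 0.025 for all genes. Ctsh and Cst3 moved this way in only 2 libraries of the 3. Ctsh lost its call without Cd11cYFP replicate 1 (-0.48, adjusted p = 0.0551) or replicate 2 (-0.41, adjusted p = 0.0812), Cst3 without Cd11cYFP replicate 1 (-0.34, adjusted p = 0.219) or MAFIA replicate 2 (-0.27, adjusted p = 0.121), and at the finer clustering Ctse (-1.003, adjusted p = 0.106), Cst7 (-0.20, adjusted p = 0.528) and Cst3 (-0.043, adjusted p = 0.822) lost theirs, as did Ctse (-0.41, adjusted p = 0.343), Cst7 (-0.70, adjusted p = 0.113) and Cst3 (-0.14, adjusted p = 0.583) with all variable genes. With no TMM scaling Ctsh (-0.21, adjusted p = 0.146) and Cst3 (-0.12, adjusted p = 0.505) lost theirs too.

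Cx3cr1+ macrophages against monocytes gave a different set. Ctsf (3.85 ± 0.38), Ctsd (3.30 ± 0.14), Cst7 (3.23 ± 0.12), Ctsb (2.11 ± 0.15), Ctsl (1.96 ± 0.19), Ctse (1.08 ± 0.26) and Ctsz (0.92 ± 0.11) were higher, which is 7 genes of 10, with 0 lower (0 also at an unadjusted p under 0.05 and by DESeq2). Of the rest, Cst3 stood at 0.33 ± 0.14 (adjusted p = 0.103, called higher with no TMM scaling at 0.47 and with no low-count filter at 0.38), Ctss at 0.10 ± 0.11 and Ctsh at 0.057 ± 0.12. Over all genes, 18.0% were called higher and 17.1% lower, and the median was 1.52 for the 10 genes against 0.0083. The count of 7 was also reached without MAFIA replicate 2, the library with neutrophil markers among its monocytes. Without Cd11cYFP replicate 1 it was 6, since Ctse lost its call (0.98, adjusted p = 0.141).

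In both contrasts with monocytes the lysosomal targeting and membrane genes were mostly higher in macrophages, 8 higher and 2 lower of 12 for Timd4+ and 9 of 12 higher for Cx3cr1+ macrophages. Igf2r (3.95 ± 0.28) and Sort1 (2.75 ± 0.15) had the largest differences for Timd4+ macrophages, and Cd63 (2.73 ± 0.20) for Cx3cr1+ macrophages. Tfec was higher by 1.33 ± 0.20 and 1.33 ± 0.19 and Mitf by 0.86 ± 0.16 and 1.16 ± 0.16, 3 regulators of 7 being higher and 2 lower in each contrast. Among processing proteases, the peptidase Cpq was higher by 2.67 ± 0.12 and 1.59 ± 0.12 and Napsa lower by -3.43 ± 0.16 and -1.70 ± 0.14, with 5 of 9 higher in each and 3 and 2 lower. Serpinb6a was higher by 5.01 ± 0.21 and 2.63 ± 0.20 among inhibitors, where 2 of 5 were higher in each and 2 and 1 lower, and Ctsa was higher by 1.34 ± 0.10 and 1.05 ± 0.10 among the other cathepsins, of which 3 and 2 of 3 were higher. Over all genes, 26.6% were called higher and 25.6% lower for Timd4+ macrophages, and 18.0% and 17.1% for Cx3cr1+ macrophages. No list was tested as a set against these shares. The 2 contrasts share the monocyte samples and are not independent.

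The 2 kinds of conventional DC differed in each of the 10 genes. Xcr1+ DCs were higher than Cd209a+ DCs for Cst3 (2.47 ± 0.17, adjusted p = 4.73e-07 by edgeR) and Ctse (1.10 ± 0.26). They were lower for Cst7 (-4.24 ± 0.26), Ctsh (-1.60 ± 0.11), Ctsd (-1.48 ± 0.10), Ctss (-1.40 ± 0.094), Ctsf (-1.39 ± 0.49), Ctsl (-1.03 ± 0.11), Ctsz (-0.72 ± 0.084) and Ctsb (-0.58 ± 0.088). These are 2 higher and 8 lower, where 20.2% of 15461 genes were called higher and 24.5% lower, with medians of -1.21 for the 10 genes and -0.029 for all genes. The Ctsf difference rests on 24 and 38 UMIs, a ratio of 3.05 (1.78 to 5.32, counting error only) in favour of Cd209a+ DCs, has its sign in 2 of 3 libraries, and lost its call without Cd11cYFP replicate 1 (-1.04, adjusted p = 0.285) or replicate 2 (-1.16, adjusted p = 0.272).

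The wider pathway was split between these DCs, where 20.2% of all genes were called higher and 24.5% lower in Xcr1+ DCs. Ctsa (-2.76 ± 0.15), Ctsw (-1.81 ± 0.27) and Ctsc (-0.86 ± 0.12) were among 4 of 4 other cathepsins that were lower in Xcr1+ DCs. Tpp1 (-2.56 ± 0.095) and Lgmn (-1.27 ± 0.19) were among 5 of 9 processing proteases that were lower, and Cpq (1.85 ± 0.098) was the 1 that was higher. Of the regulators, 5 of 7 were lower, with Tfec at -2.71 ± 0.46 and Mitf at -1.20 ± 0.17, and 1 was higher, the interferon regulatory factor Irf8 (3.73 ± 0.12), which is required for Xcr1+ DCs to form. The 12 targeting and membrane genes gave 6 higher and 4 lower (5 and 6 with no TMM scaling), with Igf2r at 3.72 ± 0.20, Cd63 at -2.42 ± 0.17 and Lamp1 at -2.01 ± 0.16. Of 9 inhibitors, 4 were higher and 2 lower (2 and 2 with no TMM scaling), and stefins led them, with Stfa2l1 at 5.63 ± 0.60 and Stfa2 at 4.95 ± 0.83, values to be read with care since stefin genes are near-identical copies and Stfa2l1 stayed at 1.88 to 2.43 CPM in Xcr1+ DCs.

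Ccr7+ DCs, which have matured and moved towards T cells, were set against the mean of Xcr1+ and Cd209a+ DCs. Cst3 (1.02 ± 0.13), Ctsh (1.02 ± 0.089), Ctsz (0.96 ± 0.070), Ctsb (0.74 ± 0.074) and Ctsd (0.29 ± 0.089, its sign in 2 of 3 libraries) were higher and Ctse (-2.08 ± 0.29) was lower. That mean is a log-scale midpoint of 2 classes that lay apart. By CPM, Ccr7+ DCs had a lower mean than Xcr1+ DCs for Cst3 (21020 against 25950). Their mean was also below that of Cd209a+ DCs for Ctsd (38.24 against 64.9) and Ctsh (654.7 against 694.4, overlapping ranges). Ctsb and Ctsz had means above both classes, with ranges that overlapped those of Cd209a+ DCs. Ctsf (0.47 ± 0.43), Ctsl (0.14 ± 0.097), Ctss (0.070 ± 0.080) and Cst7 (-0.068 ± 0.22) did not pass. Ctsl was called higher at a coarser clustering (0.67, adjusted p = 0.00132), at the finer one (0.43, adjusted p = 0.00496) and with count splitting (0.82, adjusted p = 0.00285), turned to -0.12 with all variable genes and to -0.073 with no TMM scaling, and Ctsf was called higher at the finer clustering (1.05, adjusted p = 0.0363). This is 5 higher and 1 lower, where 32.3% of genes were called higher and 34.5% lower, with medians of 0.38 and -0.036. The Ctsd call was lost without Cd11cYFP replicate 2 (0.24, adjusted p = 0.0857), with no TMM scaling (0.084, adjusted p = 0.448), at the finer clustering (adjusted p = 0.0517), with count splitting (adjusted p = 0.0772) and with doublet candidates removed (adjusted p = 0.0823). Cst7 changed sign among the settings, and was called lower without MAFIA replicate 2 (-0.42, adjusted p = 0.0437) and higher at the finer clustering (0.84, adjusted p = 0.00214).

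Around them, Cd63 rose from 10.85 to 122.1 CPM over the conventional DC libraries to 1020 to 1196 CPM in Ccr7+ DCs (5.22 ± 0.14), a range that overlapped that of Timd4+ macrophages (881 to 1079 CPM). Lamp1 (2.91 ± 0.13) and Sort1 (2.31 ± 0.14) were also higher, in a list with 7 of 12 higher and 2 lower. Lgmn (2.58 ± 0.15), the carboxypeptidase Scpep1 (2.35 ± 0.066) and Tpp1 (1.24 ± 0.076) were among 5 of 9 processing proteases that were higher, with 1 lower (4 and 3 with no TMM scaling). Among inhibitors 5 of 9 were higher and 2 lower, with Csta2 at 3.01 ± 0.53, Spint2 at 2.44 ± 0.075 and Spint1 at -2.13 ± 0.24. The regulators gave 3 higher and 2 lower of 7 (2 and 3 with no TMM scaling), with Irf8 at 0.93 ± 0.089, Tfe3 at 0.74 ± 0.079 and Usf2 at -0.46 ± 0.061. Of 4 other cathepsins 1 was higher and 2 lower (3 lower with no TMM scaling), with Ctsw at -0.86 ± 0.26 (0.68 at the finer clustering) and Ctsa at -0.59 ± 0.13. The shares over all genes in this contrast were 32.3% higher and 34.5% lower.

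pDCs, the interferon-producing DCs, had the largest single difference of the group. Ctsl was higher than in conventional DCs by 6.64 ± 0.098 (adjusted p = 5.56e-12 by edgeR), followed by Ctsb (2.82 ± 0.073), Ctsd (1.86 ± 0.091), Ctsh (1.48 ± 0.089), Ctse (1.30 ± 0.26) and Ctsz (0.21 ± 0.073). Cst3 fell by 3.14 ± 0.16 and Cst7 by 1.30 ± 0.34, and neither Ctss (-0.066 ± 0.081) nor Ctsf (0.27 ± 0.70) passed. These are 6 higher and 2 lower, where 26.4% of genes were called higher and 31.9% lower, with medians of 0.79 and -0.082. By CPM, the mean of Cst7 in pDCs (3.53) lay between those of Xcr1+ DCs (1.322) and Cd209a+ DCs (31.54). The Ctsz difference lost its call without Cd11cYFP replicate 1 (0.22, adjusted p = 0.0716) or replicate 2 (0.21, adjusted p = 0.163), and the Cst7 difference without MAFIA replicate 2 (-0.94, adjusted p = 0.0545), which held 891 of the 1237 pDCs. Cst3 kept its call but was nearer 0 at the coarser clustering (-2.51), at the finer one (-2.41) and with all variable genes (-2.37). These shifts exceed its standard error.

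Other cathepsins followed Ctsl in pDCs, with Ctso (2.71 ± 0.098), Ctsw (2.38 ± 0.24) and Ctsa (2.10 ± 0.12) making 3 of 4 higher. Sort1 was higher by 3.45 ± 0.16 and Grn by 2.22 ± 0.093, whereas Igf2r was lower at -3.18 ± 0.36, in a list with 9 of 12 higher and 3 lower. Tpp1 (2.42 ± 0.083) and Scpep1 (1.57 ± 0.071) were higher and Cd74 (-1.97 ± 0.12) was lower, 3 of 9 each way. Irf8 (2.24 ± 0.088) was the 1 regulator of 7 that was higher, and Spi1 (-2.86 ± 0.11) and Tfe3 (-0.68 ± 0.11) were lower (4 higher and 2 lower with no TMM scaling). Of 9 inhibitors 2 were higher and 3 lower, with Spint2 at 0.71 ± 0.081, Spint1 at -4.07 ± 0.36 and Serpina3g at -3.23 ± 0.17. The shares over all genes in this contrast were 26.4% higher and 31.9% lower.

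Within a class the genes were not always even. The Ccr7+ DCs held 3 clusters, and Cst3 stood at 48347, 26972 and 33510 CPM in the cluster led by Il12b, Ccr7 and Fscn1. In the cluster led by Ccl5, Ccr7 and Fscn1 it stood at 15256, 13095 and 13792 CPM, and in the cluster led by Ccl5, Fabp5 and Socs2 at 10330, 9621 and 10462 CPM. The 3 clusters did not overlap, and the first of them was above the mean of the Xcr1+ DCs in 3 of 3 libraries. Ctsh was highest in the Ccl5 and Fabp5 cluster, at 1138, 1128 and 856.3 CPM, against 343.6 to 510.2 CPM in the others. Ctsb was highest in the middle one, at 533.5, 332.5 and 379.0 CPM.

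The clusters of Xcr1+ DCs lay closer together for Cst3, between 18071 and 36630 CPM, where the highest value came from only 12 cells of MAFIA replicate 2. Dividing Xcr1+ DCs (the cluster with Ube2c and Cenpf) had 26623, 20442 and 20978 CPM, below the main cluster in 3 of 3 libraries, and their Ctss was at 334.2 to 362.4 CPM against 480.3 to 507.4. Among Cd209a+ DCs the cluster led by Cd209d had the most Cst7 (62.44, 37.49 and 31.80 CPM) and the least Cst3 (2612, 3382 and 4962 CPM). The cluster led by S100a4 and Cd209a had Cst7 at 33.10, 26.54 and 19.34 CPM and Cst3 at 7135, 5153 and 7460 CPM. These clusters were drawn from the same cells and are described with no test. A cluster of 182 cells kept in the Xcr1+ class also carried Trbc2 and Cd79a, and its Cst3 (18071 to 22491 CPM) was the lowest of that class.

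**Figure D4:**
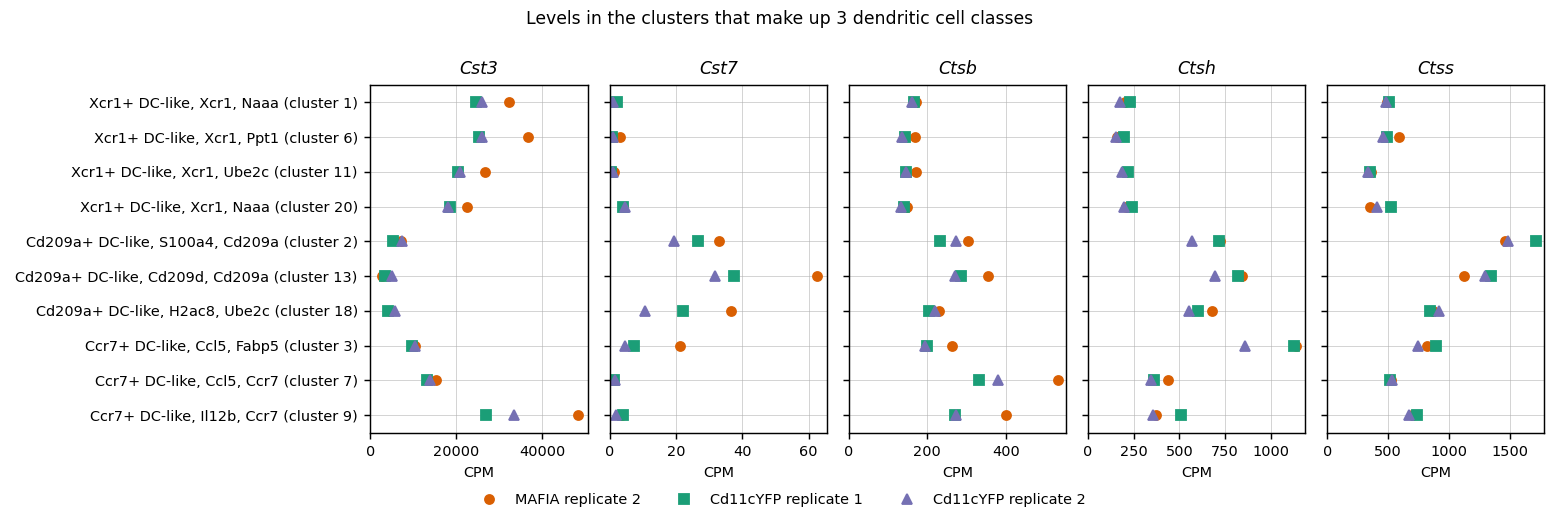
CPM (linear axes from 0) of Cst3, Cst7, Ctsb, Ctsh and Ctss in the clusters that make up the Xcr1+, Cd209a+ and Ccr7+ DC classes, named by leading genes, with 1 point per library. Cst3 reaches 26972 to 48347 CPM in the Il12b cluster of Ccr7+ DCs, and Ctsh is highest in the Ccl5 and Fabp5 cluster at 856.3 to 1138 CPM.

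Across the 11 class means, on log2(CPM + 1), the genes of the group that ran most alike were Ctss and Ctsz (Pearson r = 0.901), Ctsh and Ctsz (0.897) and Ctsb and Ctsd (0.882), and those least alike were Ctse and Ctsf (-0.607). Among 6438 genes that reached 50 CPM in at least 1 class, the nearest to Ctsb were Glmp, which codes for a lysosomal membrane protein (0.984), and Tmem86a (0.968). Nearest to Ctsd were Selenop, a selenium carrier made by macrophages (0.968), and Cant1 (0.963), and nearest to Ctsf was Tjp1 (0.987). Ctsh was followed by Sdc4 (0.977) and Cyfip1 (0.934), Ctsl by Tmem63a (0.953) and Ubxn6 (0.929), Ctss by Prkcd (0.970) and Themis2 (0.953), and Ctsz by Cyfip1 (0.964) and Scamp2 (0.939). Cst3 was nearest to Batf3, a transcription factor of Xcr1+ DCs (0.926), and Rala (0.924), Cst7 to Bcl2l11 (0.816) and Ms4a6b (0.807), and Ctse to Arhgdib (0.907) and Rasal3 (0.905). The class means come from the same libraries, so these values describe the pattern only.

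The difference between reporters was tested as a class-by-reporter term in each comparison. Of 70 tests on the 10 genes, 0 passed after adjustment over all genes in edgeR and 17 had an unadjusted p under 0.05. The lowest adjusted p was 0.0698, for Ctsl in Cx3cr1+ macrophages against monocytes, where the log2 difference in MAFIA exceeded that in Cd11cYFP by 0.99 with Ctsl at 54.17 CPM in MAFIA monocytes and 103.9 and 108.3 CPM in those of Cd11cYFP. With 1 MAFIA library and 2 to 6 residual degrees of freedom these tests can show only large differences. By level, Ctsz was higher in MAFIA replicate 2 than in both Cd11cYFP replicates in 9 of 10 classes, Cst7 was higher in 8, and Ctse was lower in 9, at a median log2 difference of 0.43, 0.53 and -1.01. Reporter, age, sex and library cannot be told apart in these values.

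On the genome the genes were spread out (GRCm39, GENCODE M39, all protein coding). Ctsb lies at chr14:63358384-63383372, Ctsd at chr7:141929646-141941775, Ctse at chr1:131566009-131603243, Ctsf at chr19:4905118-4915986 and Ctsh at chr9:89936205-89958148. Ctsl lies at chr13:64507151-64518704, Ctss at chr3:95433963-95463717 and Ctsz at chr2:174267304-174280832, and the cystatins share that chromosome, Cst3 at chr2:148713635-148717887 and Cst7 at chr2:150412284-150420864. Genes annotated inside a cathepsin on the same strand took few UMIs, at 1860 for Hmgb1-ps5 against 530295 for Ctss, 1 for Gm49369 against 209987 for Ctsd and 0 for Gm49230 against 63309 for Ctsl.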

How the data were processed

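Thymic cells sorted for Csf1r-EGFP or Itgax-Venus were profiled by droplet single-cell RNA sequencing. The deposited matrices hold whole-number UMI counts per gene and barcode, made by the authors and not normalised. The submitters' processing notes name bcl2fastq 2.20, Cell Ranger, STAR 2.7.9a and GRCm39 (mm39), with no role or order, and barcodes were used as deposited. Of 55418 gene IDs, 54749 are in GENCODE M39.

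The 4 libraries held 5500 (MAFIA replicate 1), 6347 (MAFIA replicate 2), 7687 (Cd11cYFP replicate 1) and 9737 barcodes (Cd11cYFP replicate 2) with 26876378, 126700210, 138805567 and 185882793 UMIs. MAFIA replicate 1, at a median of 3980.5 UMIs per barcode, was read as a whole library only. Cells with 1000 to 7000 detected genes and at most 10% mitochondrial UMIs were kept (6219, 7646 and 9684 from MAFIA replicate 2 and the Cd11cYFP replicates). After scaling each cell to a total of 10000 and log transformation, 2000 variable genes, chosen without the 10 genes and the pathway lists, gave 70 principal components, a graph of 3 neighbours per library and Leiden clusters at resolution 1 (leidenalg 0.10.2, igraph 0.11.9, Python 3.11.15, numpy 2.4.6, scipy 1.17.1, pandas 2.3.3, matplotlib 3.10.9). Clusters were named by the mean standardised level of their markers (at least 0.5, with at least 3 markers detected), and were set aside as mixed where a class of another lineage also reached 0.5 and 0.6 of that score, or had more markers among the 10 leading genes. Doublet candidates were not removed, other than in an alternative that left out 309, 468 and 750 cells.

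UMIs were summed per library and class (at least 10 cells) and tested with edgeR 4.0.16 in R 4.3.3 (filterByExpr, TMM, quasi-likelihood F test, library as a block, Benjamini-Hochberg adjustment over all genes, threshold 0.05). Standard errors are the log2 fold change divided by the square root of F. The block rests on the classes of a library coming from the same mouse, and deviations from class means correlated at 0.387 to 0.803 within libraries and at -0.695 to 0.459 between them. Alternatives were DESeq2 1.42.0, other scalings and filters, other clusterings, count splitting, removal of doublet candidates, a mitochondrial limit of 5%, and leaving out each library. The test was first run on simulated counts for Cx3cr1+ against Timd4+ macrophages, with a common mean for all classes and no library effect. It called 44.8% of 1.5-fold, 86.6% of 2-fold and 100% of 4-fold changes with the right sign, and 0.0792% of unchanged genes. Changes below 2-fold could thus be missed, and the library block was not tried by these data. P-values measure how class differences varied over 3 libraries once the library block was taken out. That spread is pooled over all classes of a fit, with 4, 6 or 12 residual degrees of freedom. Intervals and floors (3 UMIs) cover counting error only.

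The 10 genes and all lists were chosen with earlier results of these data known. The text names all 10 genes, up to 3 genes per list and comparison (the largest changes among those called with 1 sign in the 3 libraries), the 2 genes most alike to each, and marker genes. For Ctsf, 1 of these genes is not reported here. Promoter sequences are from RefSeq.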

Additional observations from a re-analysis of the deposited data

Results flagged for a closer look

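MAFIA replicate 1 was not among the libraries chosen for division into cell classes, so it entered no comparison of them. It was sequenced at a median of 3980.5 UMIs per barcode against 17493 for MAFIA replicate 2. Its whole-library levels of the 10 genes all stood above the 0.112 CPM that a count of 0 allows. The inhibitor Cst3 had 13670 CPM there and 11538 CPM in MAFIA replicate 2. Ctsz had 1590.9 and 1267.7 CPM, Ctsb 1326.3 and 1282.3 CPM, Ctsd 884.3 and 683.73 CPM, and Ctsh 739.68 and 656.98 CPM. Ctss was the gene that stood lower in MAFIA replicate 1 by the most, at 842.63 against 1217.2 CPM. Ctsl had 288.12 and 299.4 CPM, Cst7 45.506 and 43.02 CPM, Ctsf 10.005 and 6.7172 CPM, and Ctse 2.5385 and 2.8963 CPM. A whole library mixes all its classes, so these values are levels of the sorted pool and not of any class. Despite its lower depth, MAFIA replicate 1 had Ctsd in 95.7% of cells against 69.7% in MAFIA replicate 2, and Ctsl in 69.0% against 48.0%. Ctsb, Ctsh, Ctsz and Cst3 were also found in a larger share of its cells, and Ctse, Ctsf, Ctss and Cst7 in a smaller one. The reason was not tested. No difference between the 2 libraries was tested.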

How the results depend on the processing

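Of 70 pairs of a gene of the group and a comparison, 58 were called, and 43 of these kept their direction and call under each of 15 other settings, while 15 lost the call under at least 1 setting and 1 of them (Cst3 between the macrophage classes) changed direction. Of the 12 pairs not called, 5 were called under some setting. Calls over all genes ran from 4539 of 12937 (Cx3cr1+ macrophages against monocytes) to 10669 of 15421 (macrophages against conventional DCs). How many of all genes kept their call under every setting was not counted. The highest class was the same for 10 of 10 genes by the mean over cells. Without the replicate block, genes called fell from 4974 to 3240 for Cx3cr1+ against Timd4+ macrophages, from 4539 to 2611 for Cx3cr1+ macrophages against monocytes and from 6913 to 4541 for Xcr1+ against Cd209a+ DCs. That fit also lost the calls of Cst3 in Timd4+ macrophages against monocytes (-0.39, adjusted p = 0.143), Ctse in Cx3cr1+ macrophages against monocytes (adjusted p = 0.189), Ctse (1.02, adjusted p = 0.15), Ctsf (-1.35, adjusted p = 0.0656) and Ctsz (-0.72, adjusted p = 0.0756) in Xcr1+ DCs, Ctsd in Ccr7+ DCs (0.30, adjusted p = 0.149), and Ctsz (0.22, adjusted p = 0.488) and Cst7 (-0.95, adjusted p = 0.149) in pDCs, all by edgeR.

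With no TMM scaling the median of all genes moved to -0.155 (Cx3cr1+ against Timd4+), 0.314 (Timd4+ against monocytes), 0.15 (Cx3cr1+ against monocytes), -0.236 (Xcr1+ DCs), -0.241 (Ccr7+ DCs), 0.174 (pDCs) and 0.18 (macrophages against DCs), and the share of calls that were higher from 49.6, 50.9, 51.2, 45.3, 48.3, 45.3 and 50.8% to 34.3, 71, 68.4, 23.6, 36.9, 62 and 62%, in that order. Differences then turned to -0.098 for Ctsd between the macrophage classes, 0.24 for Ctsz in Timd4+ macrophages against monocytes, -0.073 for Ctsl and -0.14 for Ctss in Ccr7+ DCs and 0.20 for Ctss in pDCs (adjusted p = 0.0176 by edgeR), which relative to the shifted medians are close to the values with TMM.

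At the finer clustering, Cst3 turned to -0.030 between the macrophage classes and -0.074 in Cx3cr1+ macrophages against monocytes, Cst7 to 0.84 and Ctsw to 0.68 in Ccr7+ DCs. With all variable genes, Cst3 turned to -0.051 and -0.19 in the same comparisons, Ctsa to 0.14 between the macrophage classes, and Ctsl to -0.12 and Cst7 to 0.25 in Ccr7+ DCs. Count splitting turned Ctsd to -0.097 between the macrophage classes, Ctsz to 0.033 in Timd4+ macrophages against monocytes and Cst7 to 0.13 in Ccr7+ DCs. In that last comparison Cst7 was also 0.046 by DESeq2, 0.10 with no replicate block, 0.015 with all classes in 1 fit and 0.20 at a coarser clustering. Leaving out 1 library at a time gave ranges of -0.42 to 0.27 for Cst7 in Ccr7+ DCs, -0.70 to 0.58 for Ctsf in pDCs, -0.17 to 0.0044 for Ctsz in Timd4+ macrophages against monocytes and -0.091 to 0.16 for Ctsh in Cx3cr1+ macrophages against monocytes, and 3138 to 4839, 2450 to 3615 and 4473 to 6464 genes called for Cx3cr1+ against Timd4+ macrophages, Cx3cr1+ macrophages against monocytes and Xcr1+ against Cd209a+ DCs. The causes were not tested. Depth limits Ctse and Ctsf, which rest on a few UMIs per class in several libraries.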
